A study of Caenorhabditis elegans with 4 samples.

Results

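The regions described here are the binding regions of GEI-11 on the arms of chromosome V of Caenorhabditis elegans. They were chosen by position alone, as the combined regions of chromosome V whose centre lay below 7 Mb (left arm) or above 14 Mb (right arm) in the WormBase WS220 build. By this rule 682 of the 5999 combined regions were members, 345 on the left arm and 337 on the right arm. The stretch between the arms, called the centre of V below, held 417. The data came from chromatin immunoprecipitation and sequencing (ChIP-seq), which recovers the DNA that a protein was crosslinked to. Animals were fed hermaphrodite larvae of the first stage (L1) of strain OP179, grown at 20 °C on HB101 bacteria and fixed in 2% formaldehyde. Every sample carried the same genotype, unc-119(ed3) III with wgIs179, a transgene introduced by bombardment that pairs a rescuing unc-119(+) with gei-11 fused to TY1::EGFP::3xFLAG. The 4 samples were 2 ChIP samples, collected with antibodies against GFP, and 2 input samples of total chromatin, both numbered 1 and 2. Whether these numbers stand for separate cultures is not in the labels, so the spread between them may be technical. No strain without the tagged protein was among these 4 samples.

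GEI-11, also named SNPC-4, is a DNA-binding subunit of SNAPc, the small nuclear RNA activating protein complex. SNAPc binds a proximal sequence element upstream of small nuclear RNA genes and recruits RNA polymerase to them. In C. elegans the same class of promoter drives the spliced leader RNAs, which are joined to the front of many messenger RNAs. SL1, the most used spliced leader, is made from genes repeated in tandem with 5S ribosomal RNA genes on the right arm of chromosome V. The autosome arms of this species recombine more and hold more repeats and fewer essential genes than the centres. The arms of chromosome V are known for large families of chemoreceptor and nuclear hormone receptor genes.

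In the gene table used, of the WBcel235 assembly, all 12 sls-1 genes, which encode SL1 RNA, were on chromosome V. So were 15 of 16 rrn-4 genes, which encode 5S ribosomal RNA, and 28 of 99 genes of the small nuclear RNA biotype other than spliced leader genes. None of the 18 sls-2 genes, which encode SL2-type leaders, was on it, and of 15363 genes of 21U-RNA (piRNA) 202 were. The chromosome also held 180 of 220 srh and 156 of 193 str genes, both families of chemoreceptors, and 167 of 269 nhr genes, which encode nuclear hormone receptors. Another chemoreceptor family, sri, had 21 of 61 there, and 4995 of all 19971 protein-coding genes were on it. These counts are of the whole chromosome. The build differs from that of the regions, so no region was placed on a gene and no sequence was read, and each region is given by its WS220 start and end (1-based).

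Each region had a single measurement, the q value of the authors' peak caller, which is a p-value adjusted over many candidate regions. It is given below as −log10 q, on which larger values mark stronger regions. Read depth is unknown, so a q value orders regions inside its own list and says nothing of occupancy between lists. The highest q in any list was 0.0100. The replicate 1 list held 320 arm regions of 3021, and the replicate 2 list held 411 of 3722. No list of input regions was used here, and whether the q values were scored against the inputs is not given in the sources. Larvae were used whole, so binding in fewer cells and weaker binding in each cell cannot be told apart. With 2 ChIP replicates no test across samples was made. Intervals are 95% and exact (Clopper-Pearson for a share, counting error only). Each is of a single share or of a ratio of densities, and none is of a difference. Differences are given with the value in each replicate list.

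The arms held fewer regions per length than the centre in all 3 lists. In the combined list the arms had 49.1 regions per Mb and the centre 59.6, a ratio of 0.823 (interval 0.728 to 0.932). Replicate 1 had 23.0 per Mb in the arms and 30.4 in the centre, a ratio of 0.756 (0.634 to 0.904). Replicate 2 had 29.6 and 37.0 per Mb in the same order, a ratio of 0.799 (0.682 to 0.937). The other 5 chromosomes had 61.8 combined regions per Mb when pooled, also above the arms. Arm regions covered 233 kb, or 1.68% of the arms, and those of the centre covered 153 kb, or 2.18% of it. The interval treats regions as independent, although neighbours cluster.

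Left and right arm had nearly equal densities of combined regions, at 49.3 and 48.8 per Mb, a ratio of 1.01 (0.866 to 1.18). In blocks of 1 Mb the left arm ranged from 42 to 58 regions per Mb (mean 49.3 ± 5.62, SD, 7 blocks). The right arm was less even, from 36 to 69.7 (mean 49.1 ± 12.8, SD, 7 blocks). Blocks of the centre ranged from 40 to 71 (mean 59.6 ± 10.97, SD, 7 blocks), so arm and centre blocks overlapped. The densest right arm block was the outermost one, from 20 Mb, with 63 regions in less than 1 Mb of sequence, followed by the innermost one, from 14 Mb, also with 63. In both replicate lists the innermost block was the denser of the pair, with 34 regions per Mb against 28.8 in the outermost one in replicate 1, and 46 against 39.8 in replicate 2. Between them the block from 17 Mb held 36 and was the sparsest of either arm, with 15 regions in replicate 1 and 20 in replicate 2. On the left arm the outermost block was the fullest in the combined list, with 58 regions, and in replicate 2, with 41. In replicate 1 it held 27, below the 29 of the block from 5 to 6 Mb.

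**Figure D1:**
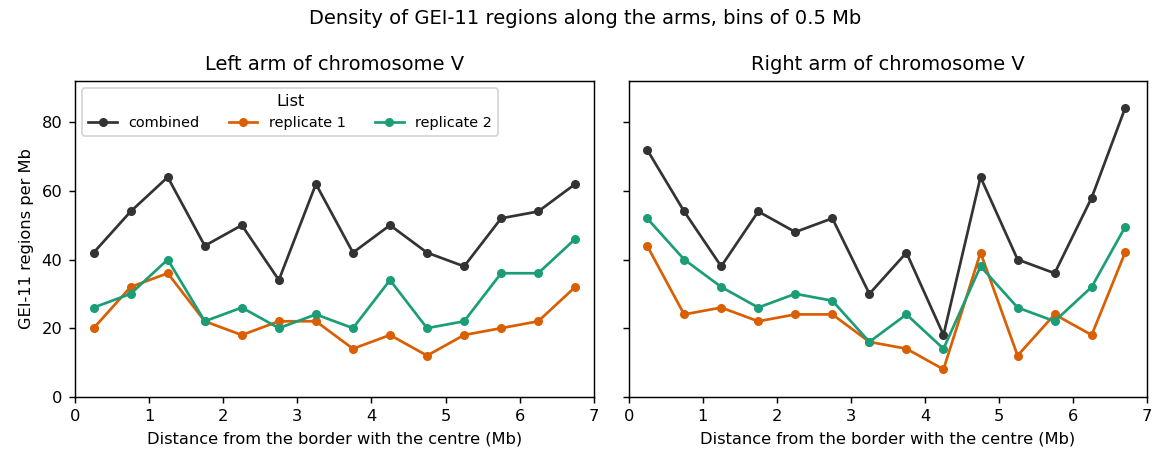
GEI-11 regions per Mb (vertical axis) in bins of 0.5 Mb against distance from the border with the centre in Mb (horizontal axis), for the left arm and the right arm, with a line for each of the 3 lists. The right arm runs from 18 to 84 combined regions per Mb and is highest in its outermost bin, and the left arm runs from 34 to 64.

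The left arm had the lower share of strong regions in each list. Regions with a q value of 1e-10 or less numbered 54 on the left arm (15.7%, interval 11.98 to 19.9) and 73 on the right arm (21.7%, 17.4 to 26.4). The centre had 98 such regions (23.5%, 19.5 to 27.9), and the share over the whole combined list was 19.7%. The intervals of left and right arm overlap. In replicate 1 the shares were 6.49% on the left arm, 13.3% on the right arm and 14.6% in the centre, beside 11.5% over that list. Replicate 2 gave 7.96%, 16.2% and 15.8% in the same order, beside 14.2% over that list. The left arm was thus the lowest of the 3 stretches in each list, and the right arm and the centre differed by less than 2 percentage points. Of the 500 strongest combined regions, 16 were on the left arm, 33 on the right arm and 37 in the centre, beside 8.33% of all combined regions. Of its regions this was 4.64% for the left arm, 9.79% for the right arm and 8.87% for the centre. For the strongest 500 of replicate 1 these counts were 15, 32 and 45, and for replicate 2 they were 16, 31 and 40. Per length, the left arm held 0.478 times as many of the 500 strongest combined regions as the right arm (interval 0.246 to 0.894). Median −log10 q in the combined list was 3.62 on the left arm, 4.19 on the right arm and 4.32 in the centre.

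**Figure D2:**
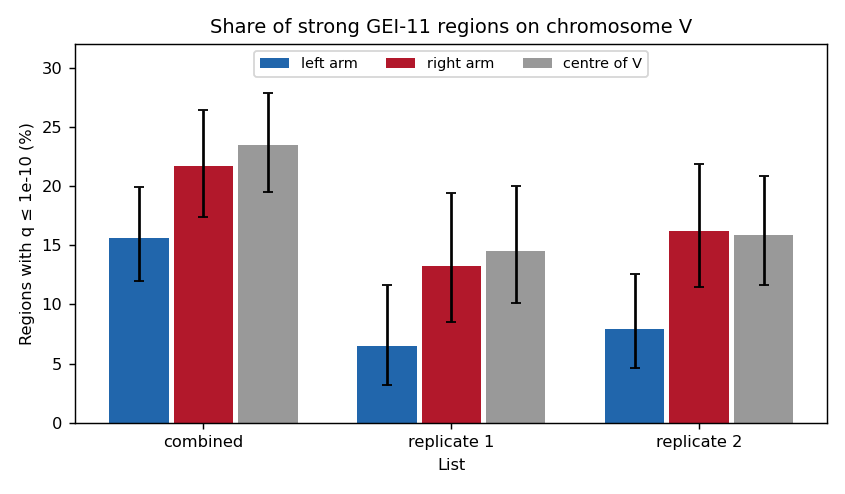
Share of regions with a q value of 1e-10 or less (vertical axis, percent) in the left arm, the right arm and the centre of chromosome V, for each of the 3 lists. Bars are shares and whiskers are 95% exact binomial intervals. The left arm has the lowest bar in each list, at 15.7%, 6.49% and 7.96%.

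The 20 regions named first are the 10 strongest of each arm that met a region in both replicates, met meaning an overlap of at least 1 bp. On the right arm, 3 regions had a −log10 q above 120 in the combined list, and all 3 lay in the first 0.5 Mb from the border with the centre. The strongest, V 14028276 to 14028887, was 612 bp wide and ranked 49 in the combined list (q 2.55e-132). Its −log10 q was 80.6 in replicate 1 and 100.3 in replicate 2. V 14468386 to 14468976 followed (q 3.86e-129), with 66.6 in replicate 1 and 113 in replicate 2. Next came V 14092258 to 14092767 (q 6.11e-125), with 68.4 and 104 in replicates 1 and 2. These 3 stood at ranks 52 to 60 of replicate 1 and 49 to 55 of replicate 2, so each was placed alike by the separate lists.

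Near the right end of the chromosome, V 20455582 to 20456311 was the fourth region of the arm (q 1.51e-106), with 64.4 in replicate 1 and 91.2 in replicate 2. V 20803442 to 20803824 (q 9.32e-68) had 25.2 in replicate 1 and 45.9 in replicate 2. The third of this group was V 20698840 to 20699316 (q 1.99e-56), with 28.9 and 33.3. All 3 lay within the last 0.5 Mb of the chromosome. Nearer the border stood V 15028895 to 15029333 (q 4.22e-92), with 43.3 in replicate 1 and 63.7 in replicate 2. V 14876255 to 14876663 (q 2.41e-62) had 27.0 and 41.0, and V 14054996 to 14055445 (q 1.58e-41) had 18.4 and 23.5. Only V 16965484 to 16966070 (q 2.33e-49), with 23.5 and 27.9, lay between 16 and 20 Mb among these 10.

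On the left arm the 2 strongest regions both lay in the block from 5 to 6 Mb, with other combined regions between them. V 5575911 to 5576502 (q 6.93e-102) ranked 64 in the combined list and had −log10 q values of 47.4 in replicate 1 and 76.3 in replicate 2. V 5587003 to 5587445 (q 3.72e-77), with 29.5 in replicate 1 and 53.8 in replicate 2, was the second. These were the only left arm regions among the 100 strongest of the combined list, which held 6 from the right arm and 11 from the centre. V 1803970 to 1806481 (q 1.02e-55) had 19.9 and 31.0, and V 858850 to 859212 (q 2.50e-43) had 14.6 and 29.5. The fifth, V 264907 to 266581 (q 3.72e-35), had almost equal values, 26.3 in replicate 1 and 27.6 in replicate 2. Among the weaker ones of the 10, V 5049257 to 5049939 (q 1.13e-33) had 12.02 and 21.6, and V 1151147 to 1151785 (q 4.52e-33) had 14.8 and 17.3. The tenth, V 6267303 to 6267832 (q 2.94e-26), had 11.4 and 14.6. Over the 10, median −log10 q was 14.7 in replicate 1 and 24.6 in replicate 2 on the left arm, against 36.1 and 54.8 for the 10 of the right arm. In all 20 regions the value was higher in replicate 2 than in replicate 1.

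Several of the strong left arm regions were wide. V 6226951 to 6229981, at 3031 bp, and V 6223001 to 6225720, at 2720 bp, were the widest regions of either arm and lay close together. The first had −log10 q values of 4.54 in replicate 1 and 14.8 in replicate 2, and the second had 10.5 and 17.8. V 1803970 to 1806481, at 2512 bp, was the third widest of that arm. The widest regions of the right arm were weaker. V 18718757 to 18721326 (2570 bp) had 4.40 in replicate 1 and 2.44 in replicate 2, V 18716021 to 18718389 (2369 bp) met replicate 2 alone, with 2.86, and V 14686593 to 14688822 (2230 bp) had 7.11 and 5.39. Regions of 1000 bp or more numbered 7 on the left arm (2.03%) and 12 on the right arm (3.56%), beside 2.48% of the whole combined list. In replicate 1 there were 4 on the left arm (2.60%) and 2 on the right arm (1.20%), beside 1.72% of that list. In replicate 2 there were 5 (2.49%) and 4 (1.90%), beside 1.69% of that list. These counts are small, and the intervals of the arms overlap in each list. In the combined list their median −log10 q was 28.6 on the left arm and 10.5 on the right arm. Of them 7 of the 7 and 8 of the 12 met both replicates, beside 12 of 13 in the centre and 101 of 117 on the other chromosomes.

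Arm regions were slightly narrower than those of the centre, with a median width of 299 bp against 335 bp. Both arms had this median in the combined list. In replicate 1 the medians were 310 bp in the arms (309.5 before rounding) and 341 bp in the centre, and in replicate 2 they were 304 bp and 331 bp. Regions narrower than 50 bp made up 8.70% of the left arm (interval 5.94 to 12.2), 11.6% of the right arm (8.36 to 15.5) and 6.0% of the centre (3.92 to 8.72), beside 7.30% of the whole combined list. In replicate 1 the shares were 3.25% on the left arm, 6.63% on the right arm and 2.82% in the centre, and in replicate 2 they were 5.47%, 5.24% and 2.70%. Of the 69 combined ones on the arms 61 met neither replicate, beside 24 of 25 in the centre and 289 of 344 on the other chromosomes. The median −log10 q of the 69 was 2.25, beside 2.25 in the centre and 2.41 on the other chromosomes. Wider arm regions tended to have the larger −log10 q (Spearman rho 0.730 over the 682), which is a description only, since width and q come from the same reads.

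Of the arm regions, 245 met a region in both replicates (35.9%, interval 32.3 to 39.7), beside 38.8% of the whole combined list and 41.2% of the centre (36.5 to 46.1). On the left arm 119 did (34.5%) and on the right arm 126 (37.4%). Another 51 met replicate 1 alone and 135 replicate 2 alone. The other 251 met neither (36.8%, interval 33.2 to 40.5), beside 33.2% of the whole combined list and 32.6% of the centre (28.1 to 37.3). The intervals of arms and centre overlap. Median width was 422 bp for the 245 and 168 bp for the 251, and median −log10 q was 10.2 for the 245 and 2.44 for the 251.

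Support followed strength on the arms as it did over the list. The combined list comes from the same ChIP samples, so a match to a replicate list was not independent support. All 108 arm regions among the 1000 strongest were met in both replicates. Over the list it was 500 of 500 at ranks 1 to 500 and 498 of 500 at ranks 501 to 1000. Of those at ranks 1001 to 2000 it was 90.2% in the arms (83 of 92) and 86.7% in the centre (52 of 60). At ranks 2001 to 3000 it was 46.9% (53 of 113) in the arms and 45.6% (31 of 68) in the centre, and 42.7% over the list. Of 103 arm regions at ranks 3001 to 4000, 1 was met in both, against 6 of 53 in the centre and 35 of 1000 over the list. Beyond rank 4000 none of 266 arm regions was, and likewise none of 153 in the centre and none of 1999 over the list. For the arms this allows a share of up to 1.13% when 0 is read as at most 3 counts (exact upper limit 1.38%). These weakest ranks held 39.0% of the arm regions, 36.7% of those of the centre and 33.3% of the whole list. The strongest region that met neither replicate was V 1943514 to 1943896 on the left arm (q 5.08e-05, rank 2945) and V 14831326 to 14832519 on the right arm (q 1.56e-06, rank 2203). The next on the left arm were V 59873 to 59956 and V 6427440 to 6427718, and on the right arm V 20710628 to 20710834 and V 19669016 to 19669159.

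**Figure D3:**
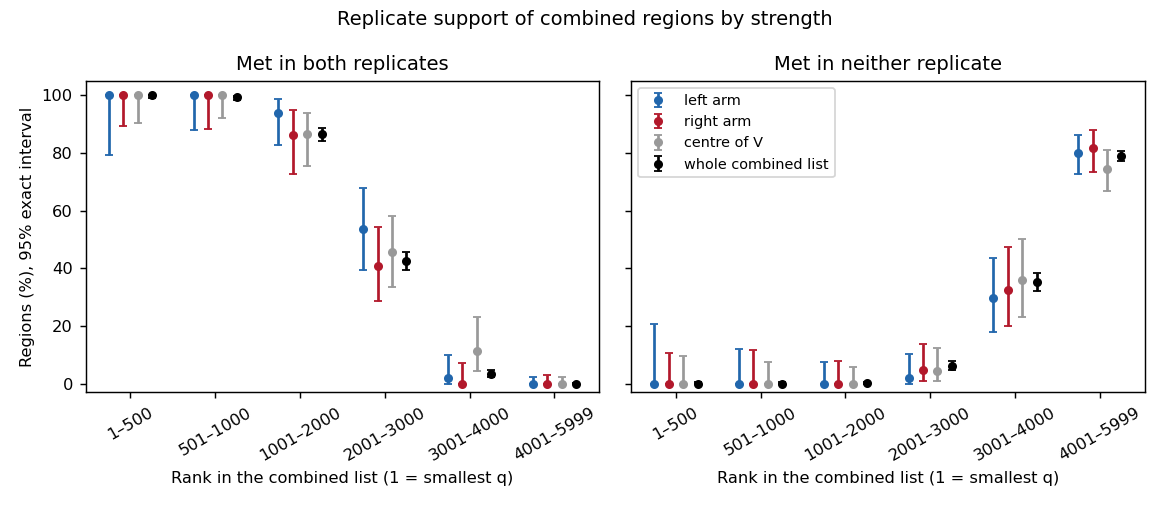
Share of combined regions met in both replicates (left panel) and in neither (right panel), in percent with 95% exact intervals, by rank in the combined list, for the left arm, the right arm, the centre of V and the whole combined list. Within each rank class the intervals of the arms and the centre overlap. At ranks 3001 to 4000 the share met in both drops to 1 of 103 arm regions, and to 35 of 1000 over the list.

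Strength in the replicates was ordered alike. Across the 245 arm regions met in both, −log10 q in replicate 1 and replicate 2 gave Pearson r 0.969 and Spearman rho 0.751. On the left arm rho was 0.710 (119 regions) and on the right arm 0.789 (126 regions), beside 0.783 in the centre (172 regions). These values describe a single pair of libraries, whose regions share depth and genome position, and carry no p. Replicate 2 had the higher −log10 q in 176 of the 245 (71.8%), beside 71.2% of the regions met in both over the whole list. The median difference, replicate 2 minus replicate 1, was 1.12, beside 1.02 over the whole list. That difference was 0.801 on the left arm and 1.68 on the right arm. In every one of the 245 regions the combined −log10 q exceeded both replicate values, as it did in 99.7% over the whole list. Position agreed closely. The region centres of the replicates lay a median of 30 bp apart, both on the arms and over the whole list. The median was 36 bp on the left arm and 24.5 bp on the right arm. They lay within 50 bp in 170 of the 245 (69.4%), beside 68.9% over the whole list. Among the 20 strongest the distance was 50 bp or less in 15, and the largest was 334 bp in the wide region V 6223001 to 6225720.

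**Figure D4:**
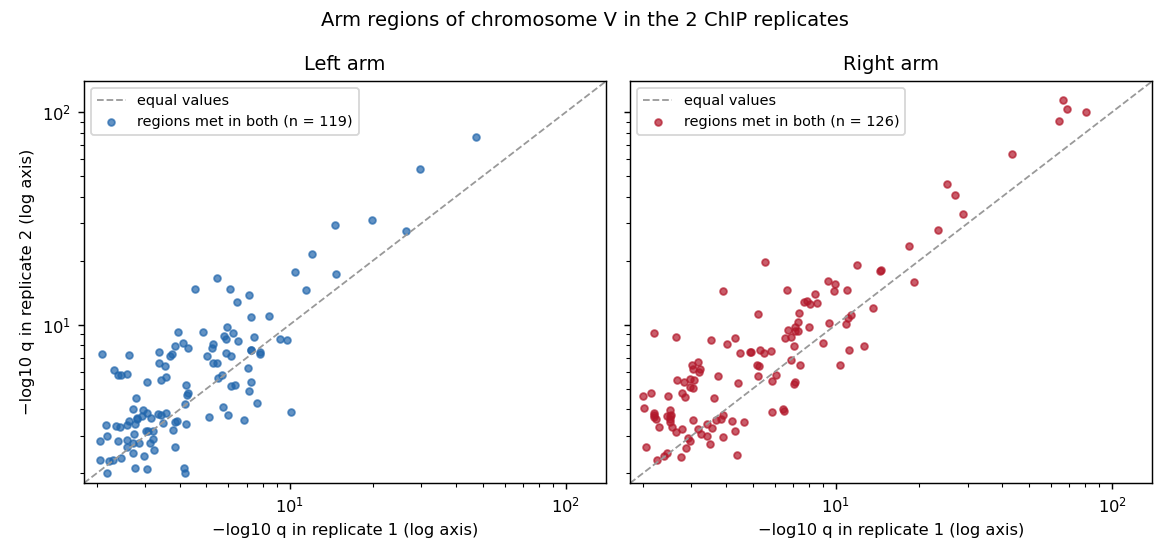
Each point is an arm region met in both replicates, with −log10 q in replicate 1 (horizontal axis) and replicate 2 (vertical axis), both on log axes, for the left arm (119 regions) and the right arm (126 regions). The dashed line marks equal values, and 176 of the 245 points lie above it.

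Between the replicates, 246 of the 320 arm regions of replicate 1 (76.9%, interval 71.9 to 81.4) met a region of replicate 2, beside 77.6% over that list and 80.8% in the centre (74.8 to 85.8). In the other direction 246 of the 411 arm regions of replicate 2 (59.9%, 54.9 to 64.6) met a region of replicate 1, beside 63.0% over that list and 66.8% in the centre (60.7 to 72.5). The intervals of arms and centre overlap in both directions. Some arm regions of the replicates had no counterpart in the combined list. In replicate 1 these were 8 of 154 regions on the left arm and 9 of 166 on the right arm, beside 5.46% of that list. In replicate 2 they were 8 of 201 on the left arm and 17 of 210 on the right arm, beside 4.38% of that list. All were weak. Those of replicate 1 reached a −log10 q of 2.58 and had a median width of 45 bp, and those of replicate 2 reached 2.86 and had 53 bp. Their median −log10 q was 2.20 in replicate 1 and 2.27 in replicate 2, beside 2.20 and 2.28 for all such regions of each list. None of them met a region of the other replicate, beside 4 of 165 over the list of replicate 1 and 4 of 163 over that of replicate 2.

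Close neighbours were more frequent on the right arm than on the left in the combined list, but not in every replicate list. A neighbour within 1 kb, measured from edge to edge, was found for 53 left arm regions (15.4%, interval 11.7 to 19.6) and 86 right arm regions (25.5%, 20.95 to 30.5). The centre had 109 (26.1%, 22.0 to 30.6), and the share over the whole combined list was 21%. In replicate 1 the shares were 16.2% on the left arm, 15.1% on the right arm and 12.7% in the centre, beside 13.4% over that list. In replicate 2 they were 12.4%, 14.8% and 16.2% in the same order, beside 14.8% over that list. The centre was thus above the left arm in the combined list and replicate 2, but not in replicate 1. In replicate 1 the order of the arms was thus the opposite. The median distance to the nearest combined region was 4.35 kb on the left arm and 4.98 kb on the right arm, against 2.94 kb in the centre. This order did not hold in the replicate lists. Replicate 1 had 8.84 kb on the left arm, 8.92 kb on the right arm and 9.55 kb in the centre, and replicate 2 had 8.98, 6.25 and 6.21 kb in the same order.

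The right arm held 12 runs of 3 or more combined regions, each within 1 kb of the next, and the left arm 5. With single regions counted as runs, these were 12 of 285 on the right arm and 5 of 316 on the left arm. The centre had 8 of 358 and the other chromosomes 93 of 4331. Within the arms the longest runs, 3 of them with 5 regions each, were all on the right arm. The largest run had 4 regions in the centre and 6 on the other chromosomes. The widest of these, V 18715555 to 18724779, spanned 9225 bp and contained the 2 widest regions of that arm. The others, V 14847307 to 14850864 and V 20776575 to 20781211, spanned 3558 and 4637 bp. No run of combined regions on the left arm had more than 3. In the replicate lists runs of 3 or more were few, at 3 on the left arm and 1 on the right arm in replicate 1, and 2 and 1 in replicate 2. The largest run had 3 regions on each arm in replicate 1. In replicate 2 it had 4 on the left arm and 3 on the right arm.

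**Figure D5:**
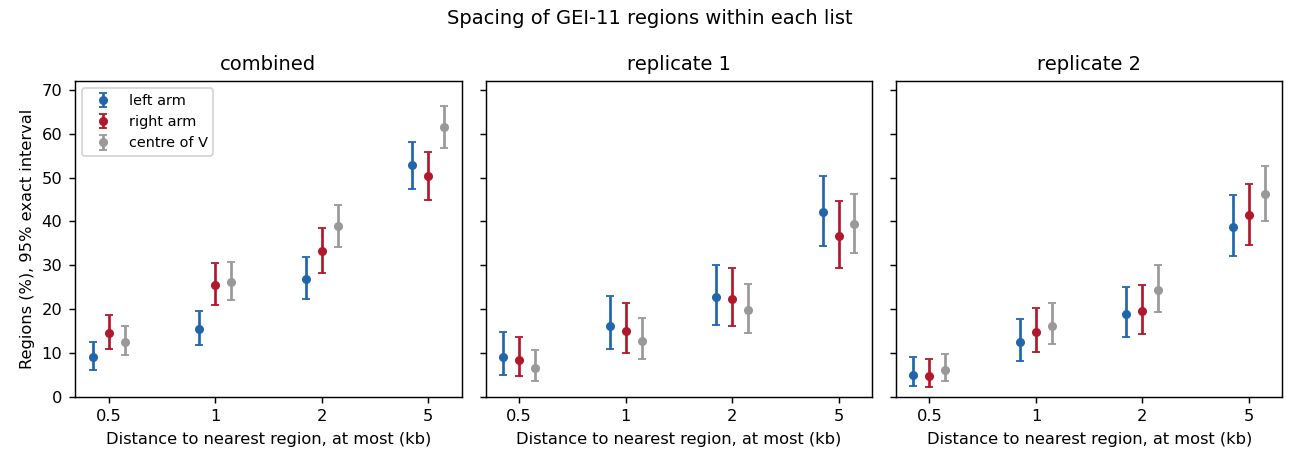
Share of regions whose nearest neighbour in the same list lies within 0.5, 1, 2 or 5 kb (horizontal axis), in percent with 95% exact intervals (vertical axis), for the left arm, the right arm and the centre of V, in each of the 3 lists. At 1 kb the combined list has 15.4% on the left arm and 25.5% on the right arm, and in the replicate lists the arms lie within 3 percentage points of each other.

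In windows of 100 kb the fullest of the right arm was V 20400001 to 20500000, with 17 combined regions, 6 in replicate 1 and 8 in replicate 2. V 20700001 to 20800000 held 16, with 8 and 10, and V 14000001 to 14100000 held 13, with 7 and 8. The fullest of the left arm, V 100001 to 200000, held 12, with 8 in each replicate. It was followed by V 2600001 to 2700000 and V 3700001 to 3800000 with 11 each, and the fullest window of the centre held 14. Of the 17 regions in the fullest right arm window, 3 met both replicates and 7 met neither. The fullest left arm window had 5 of 12 in both and 3 in neither. The longest stretch with no combined region ran over 232 kb on the left arm, V 2343810 to 2575781, and over 165 kb on the right arm, V 15230090 to 15394942. Neither stretch held a region of replicate 1 or replicate 2.

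At the border of the left arm, the nearest members were V 6998178 to 6998668 (−log10 q 2.32, met in neither replicate) and V 6888905 to 6889105 (2.48, met in replicate 2 alone). Just outside lay V 7060307 to 7060796 (20.9, met in both) and V 7062085 to 7062214 (2.10, met in neither). At the border of the right arm, the nearest members were V 14003686 to 14003958 (3.02, met in replicate 2 alone) and V 14010462 to 14010635 (2.19, met in neither). Just outside lay V 13992193 to 13992278 (5.07, met in replicate 2 alone) and V 13961995 to 13962358 (11.8, met in both). At the left end of the chromosome the outermost region, V 8089 to 9232, was 1144 bp wide, with 9.76 in replicate 1 and 8.46 in replicate 2 for its −log10 q. The outermost region at the right end, V 20903644 to 20904009, had 2.89 in the combined list and met neither replicate.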

How the data were processed

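The region lists deposited by the authors were 3, that of ChIP replicate 1, that of ChIP replicate 2 and a combined list. Their q-values, the only measurement of a region, came from PeakSeq, per the file headers, and positions had been carried over to WormBase WS220. No liftover comment concerned chromosome V. Not given in the sources used here are the aligner, software versions, filters, read depth, the use of the inputs and the way in which the combined list was made.

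Regions were ranked by q within each list, and a region of 1 list met a region of another where they overlapped by 1 bp or more. Chromosome V was taken to end at 20904009 bp, the largest end of any region on it. A ratio of densities has an exact interval conditional on the sum of both counts. The functions were tested on simulated data. Named regions followed a rule: in each arm the 10 strongest met in both replicates, the 3 strongest met in neither, the 3 widest, the 3 fullest windows of 100 kb and the longest empty stretch, with the 2 regions on each side of each border and those nearest the chromosome ends. The rule also covered replicate regions among the 50 strongest of a list that met no combined region, and it named none on the arms. It could hardly name any there, because the strongest arm region ranked 52 in replicate 1 and 49 in replicate 2. Over the whole lists there were 5 such regions in replicate 1 and 3 in replicate 2. Alternatives changed the arm borders, the strength or width a region needed, the neighbour distance and the list used. Runs were chosen after their values were seen. The members, lists and rule were chosen with earlier results of these data known. Python 3.11.15, numpy 2.4.6, pandas 2.3.3, scipy 1.17.1 and matplotlib 3.10.9 were used.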

Additional observations from a re-analysis of the deposited data

How the results depend on the processing

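Of 98 alternatives, 62 left the value within a tolerance, 35 moved it further and 1 turned a difference round. After seeing the data 33 of them were added. The tolerance was the interval of a ratio or share, the spread between the replicate lists for a difference in medians, or 0.05 of the reported rho. For a difference in shares it was the distance from the middle to the end of the interval of the first share alone. No interval of such a difference was computed. No paired analysis was possible because no region list of an input was used, and nothing else shares a number with a ChIP sample. The ratio of arm to centre density stayed below 1 in all 13 alternatives run. For the strongest 500 regions it was 0.667, with an interval of 0.426 to 1.05 that spans 1. It was 0.652 for q of 1e-10 or less, 0.717 for regions met in both replicates, and from 0.756 to 0.799 with 1 replicate list alone. Left over right arm density, 1.01 as reported with an interval that spans 1, had no settled direction: it was below 1 in 8 of 13 alternatives. It was 0.851 for the stronger 50% of regions and 0.478 (interval 0.246 to 0.894) for the strongest 500. For q of 1e-10 or less it was 0.730, and with 1 list alone it was from 0.915 to 0.944. The share of arm regions met in both replicates was 78.0% for the stronger 50%, 100% for the strongest 500 and 39.97% for regions of at least 50 bp, and the share met in neither was 1.28%, 0% and 31.0%. The difference in the share met in both, arms minus centre (-5.32 percentage points), was -0.718 for the stronger 50%. The difference in median −log10 q, arms minus centre (-0.456), was -0.180 with borders at 8 and 13 Mb, -0.690 for regions met in both and from -0.733 to -0.416 with 1 list alone. The difference in median width (-36 bp) was -26 bp with those borders and for regions of at least 50 bp, -11.5 bp for regions met in both and from -31.5 to -27 bp with 1 list alone. Left minus right arm, the difference in median −log10 q (-0.564) was -0.621 with the chromosome cut into 3 equal lengths, -0.334 with borders at 6 and 15 Mb, -0.697 with borders at 8 and 13 Mb, -0.895 for regions of at least 50 bp, -0.636 without the outermost 1 Mb and from -0.209 to -0.170 with 1 list alone. The share of arm regions with a neighbour was 11.7% within 500 bp and 30.1% within 2 kb, and from 13.6% to 15.6% within 1 kb with 1 list alone. Its difference, left minus right arm (-10.2 percentage points), was -6.20 for regions of at least 50 bp, -5.55 within 500 bp and from -2.32 to 1.17 with 1 list alone. Lists of fewer regions leave larger distances by construction; the cause of the other changes was not tested. Depth is unknown, so its limit on weak regions was not measured.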

Other observations

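Where the replicates split a combined region, they did so rarely. On the arms 6 combined regions met more than 1 region of replicate 1, at most 3 each, and 6 met more than 1 region of replicate 2, at most 2 each.

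Counts of strong regions also differed between blocks of the right arm. From 14 Mb outwards its blocks of 1 Mb held 15, 15, 11, 6, 8, 7 and 11 combined regions with a q of 1e-10 or less. These were out of 63, 46, 50, 36, 41, 38 and 63 regions, beside a share of 19.7% over the whole combined list. In replicate 1 the counts were 8, 3, 4, 1, 0, 2 and 4, out of 34, 24, 24, 15, 25, 18 and 26. In replicate 2 they were 11, 5, 7, 1, 2, 2 and 6, out of 46, 29, 29, 20, 26, 24 and 36. The shares over these 2 lists were 11.5% and 14.2%. In all 3 lists the innermost block held the most strong regions or as many as any other. For regions of any strength the same held. On the left arm, from the chromosome end to 7 Mb, the combined counts were 9, 7, 5, 3, 7, 12 and 11, out of 58, 45, 46, 52, 42, 54 and 48 regions. Those of replicate 1 were 3, 2, 0, 0, 0, 3 and 2, out of 27, 19, 15, 18, 20, 29 and 26. Those of replicate 2 were 3, 2, 1, 1, 1, 4 and 4, out of 41, 29, 27, 22, 23, 31 and 28. There the outermost block tied for the most in replicate 1. No further test was made of this pattern, which was noticed after the values were seen.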
